A study of Mus musculus with 6 samples.

Results

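Ribosomal protein pseudogenes are copies of ribosomal protein genes scattered over the mouse genome, and 201 of them were measured in the liver of 6 male mice aged 8 weeks. They were chosen by name: each is the single gene that the array platform's annotation lists for a probe set, with a symbol that starts with Rpl or Rps and contains -ps. They came from 202 probe sets (the probe set with the higher mean was kept for 1 gene), out of 30145 genes with a single symbol. The labels divide the mice into 3 HFD-inulin animals, offspring of mothers treated with inulin, a fermentable plant fibre, and 3 HFD animals, offspring of mothers on a high-fat diet (HFD). Because the name of the first group also holds HFD, its mothers may have received both, which the labels do not settle. The labels give no strain, no genotype, no offspring diet and no inulin dose, and they do not say whether the animals of a group had separate mothers. The p-values measure the spread between these animals, which includes technical variation. Where animals of a group shared a mother, these p-values do not measure the spread between mothers. Each animal's total liver RNA was read on 1 array, and the values are log2 signals.

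The ribosome is built of a large and a small subunit, and the genes of their proteins are named Rpl and Rps. The messenger RNAs of these genes are short and abundant in most cells, and they have been copied back into the genome many times by reverse transcription. Most such copies lack the introns and the promoter of the gene they came from, called the parent here, and carry mutations that break the reading frame. Since a copy keeps much of the parent's exon sequence, a short probe designed to a copy can also pair with the parent's RNA. The probe sequences were not used here, so which RNA a probe set of these data reads was not tested.

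The sequence upstream of the transcript start shows the separation of a copy from its parent, and the RefSeq promoter table (GRCm38.p6) holds it for 1 of the 201 pseudogenes, Rpl31-ps12, which is described for that reason. RefSeq types this copy as protein-coding in spite of its name. The 250 bases before the start are given 5′ to 3′ for the parent Rpl31, which encodes a large subunit protein, at chr1:39367601-39367850 on the plus strand, and for the copy at chr16:16820197-16820446 on the minus strand.
Rpl31: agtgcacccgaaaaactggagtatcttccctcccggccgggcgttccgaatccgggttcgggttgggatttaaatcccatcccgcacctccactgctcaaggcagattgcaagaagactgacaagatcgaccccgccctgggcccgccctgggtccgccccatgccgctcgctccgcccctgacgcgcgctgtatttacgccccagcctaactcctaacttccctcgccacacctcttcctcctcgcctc
Rpl31-ps12: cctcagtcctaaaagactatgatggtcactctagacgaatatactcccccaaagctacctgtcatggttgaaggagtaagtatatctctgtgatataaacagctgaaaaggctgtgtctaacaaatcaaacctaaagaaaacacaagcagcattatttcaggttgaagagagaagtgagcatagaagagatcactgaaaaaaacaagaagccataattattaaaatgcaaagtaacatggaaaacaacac
The parent's stretch had a GC content of 62.8% and the copy's one of 36.8%. After the start the pair did align, over 23 bases with 1 mismatch, C11T (the parent's base first, position counted from 1 at the 5′ end of the stretch). This stretch began at base 28 after the start in Rpl31 and at base 17 in Rpl31-ps12. Only 50 bases after the start were available, and in Rpl31 the stretch ran to the last of them. How far the likeness continues is therefore not known. Before this stretch, the best local alignment of the pair spanned 7 bases.

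RefSeq listed all 201 members, 1 of them under an updated symbol, and typed 194 of them as pseudogenes. Of the other 7, it typed Rpl14-ps1, Rps15a-ps4, Rps15a-ps6, Rps19-ps3 and Rps6-ps4 as transcribed pseudogenes and Rpl31-ps12 and Rpl34-ps1 as protein-coding. Their differences between the groups ran from 0.12 to 0.51, inside the range of the rest. The members descend from 51 parent genes, led by Rpl31 with 22 copies, Rps12 with 15, and Rpl21 and Rps19 with 13 each. Probe sets do not always separate the copies. The values on all 6 arrays were identical to those of another probe set for 9 members: Rpl35a-ps3, Rpl35a-ps4 and Rpl35a-ps6, Rps12-ps6, Rps12-ps17 and Rps12-ps18, Rps12-ps13, and Rps19-ps1 and Rps19-ps2.

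Signals of these pseudogenes were far above those of other pseudogenes on the array. Their mean over the 6 arrays ran from 0.64 to 9.90 on the log2 scale with a median of 5.96, against a median of 1.22 over all 65956 probe sets. The 628 pseudogenes of other genes with -ps in their symbol had a median of 0.81. Of the 201 members, 187 lay at or above the median probe set. Levels of different probe sets depend on the probes as well as on the RNA, so these are signals and not amounts of transcript.

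The HFD-inulin mean was higher than the HFD mean in 191 of the 201 pseudogenes and lower in 10. The median difference was 0.37 on the log2 scale, and single members ran from -0.13 for Rps15a-ps1 to 0.80 for Rpl3-ps2. No member passed limma's adjusted p under 0.05, after Benjamini-Hochberg adjustment over the 65956 probe sets. The smallest adjusted p among them was 0.902, and 0% of all probe sets passed. At an unadjusted limma p under 0.05, 110 members were higher and 0 lower, which is 54.7% of them, where 5.15% of all probe sets passed, 2.52% higher and 2.64% lower. Every HFD-inulin array lay above every HFD array for 92 members (45.8%), against 4.32% of all probe sets, and 0 members had the reverse order, against 6.02%. In whole liver, a difference in RNA per cell cannot be told apart from one in the makeup of cell types.

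The size of the difference was uneven across the arrays. As the median over members of the signal minus the HFD mean, the pseudogenes stood at 0.40, 0.58 and 0.10 in HFD-inulin arrays 1, 2 and 3 and at 0.04, -0.07 and 0.02 in HFD arrays 1, 2 and 3. HFD-inulin arrays 1 and 2 were thus well above all HFD arrays, HFD-inulin array 3 only slightly, and HFD array 2 was lowest. HFD-inulin array 2 was the highest of the 6 for 155 members, and HFD array 2 the lowest for 128. The 628 other pseudogenes, 473 of them with a mean under 2, had medians of 0.01, -0.07 and 0.01 in the HFD-inulin arrays and between -0.01 and 0.01 in the HFD arrays. At a mean of 4 or more, the 102 other pseudogenes stood at 0.13, 0.09 and 0.02 in the HFD-inulin arrays, and the 141 members of that level at 0.46, 0.68 and 0.11.

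**Figure D1:**
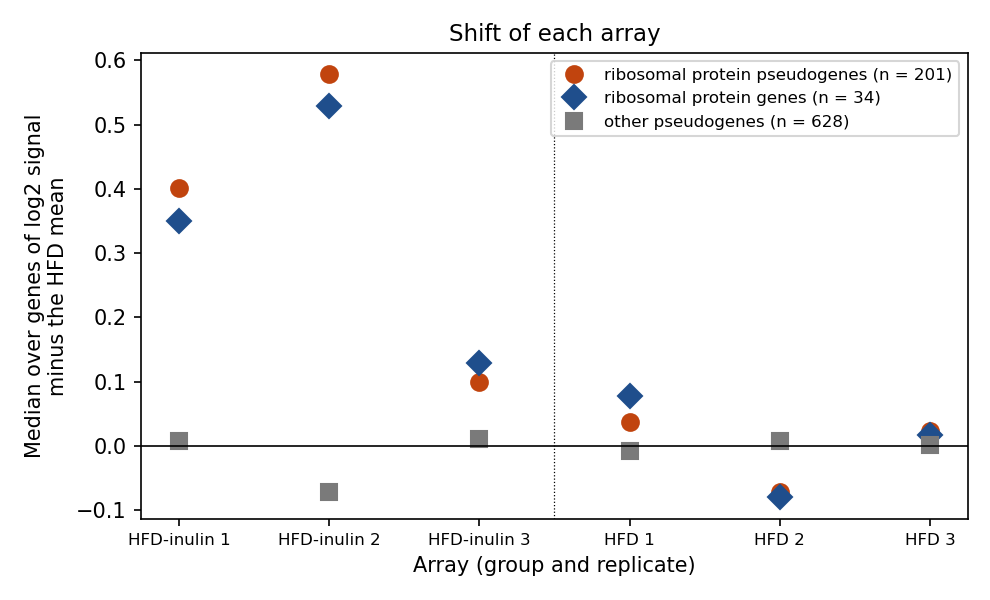
Shift of each array, as the median over genes of log2 signal after subtracting each gene's HFD mean (vertical axis), on each of the 6 arrays (horizontal axis), for the ribosomal protein pseudogenes (circles), the ribosomal protein genes (diamonds) and the other pseudogenes (squares). Pseudogenes and genes of ribosomal proteins stand together near 0.40 and 0.35 in HFD-inulin array 1 and at 0.58 and 0.53 in array 2, while the other pseudogenes stay between -0.07 and 0.01.

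The arrays also divide in a way that crosses the diet groups in part, with HFD-inulin arrays 1 and 2 beside HFD array 1. The members' shift followed it among the HFD-inulin arrays. HFD arrays 1 and 3, on different sides of it, stood at 0.04 and 0.02. Probe sets numbered on chromosome Y that share their values with others had a mean log2 signal of 1.91 and 1.60 in HFD-inulin arrays 1 and 2 and 1.34 in HFD array 1, but 3.15 in HFD-inulin array 3 and 3.24 and 2.99 in HFD arrays 2 and 3. Within the first 3 arrays (low signal), the median difference of the members was 0.45, and 187 members had the higher HFD-inulin value. Within the other 3 (high signal) it was 0.12, and 162 members did. The low-signal difference sets 2 arrays against 1 and the high-signal one 1 against 2, and a test of the change between them was not made. With the split as a block in the fit the median difference was 0.28, and 85 members were higher at an unadjusted p under 0.05, against 2.55% of all probe sets.

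Single arrays also moved the count of 110. It was 43 without HFD array 2 (21.4% of members, against 1.13% of all probe sets) and 72 without HFD array 3 (35.8%, against 1.36%). Leaving out HFD-inulin array 1 gave 56 (27.9%, against 1.89%) and leaving out the second one gave 57 (28.4%, against 2.05%). It was 158 without HFD-inulin array 3 (78.6%, against 5.56%). There 172 members had groups that did not overlap (85.6%, against 11.5% of all probe sets).

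Markers of the liver's cell types were read on the same arrays. The hepatocyte markers, of which 6 of 7 were measured, had means of 9.82 to 11.5 and a mean difference of -0.17. Their summed level, the log2 of the sum of their linear signals, weighs the brightest marker most. It was 13.1, 13.1 and 13.3 in the HFD-inulin arrays against 13.2 to 13.4 in the HFD arrays. The summed level of the neutrophil markers, all 5 measured, was 3.73, 4.29 and 3.73 in HFD-inulin and 3.68 to 3.86 in HFD. Of these 5, 2 were below the median probe set. For the cholangiocyte markers, 3 of 4 measured, the summed level was 3.86, 4.31 and 3.77 against 3.72 to 3.94. HFD-inulin array 2, the highest for most pseudogenes, was thus also highest for these last lists, whose part in the result was not tested. Kupffer cell (6 of 6 markers measured), lymphocyte (5 of 6), endothelial (4 of 4), stellate (4 of 4), pancreatic (3 of 4) and adipose (3 of 4) markers had mean differences from -0.12 to -0.02, and the single erythroid marker measured, Alas2, one of -0.06.

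Among copies of large subunit genes, Rpl38-ps1 had the largest fold among the 10 members with the smallest unadjusted p. Its signal was 7.20, 7.64 and 6.95 in HFD-inulin arrays 1, 2 and 3 and 6.51, 6.49 and 6.59 in HFD arrays 1, 2 and 3. All 3 HFD-inulin arrays were above the HFD arrays, and the difference was 0.73 ± 0.17 (SE), or 1.66-fold. Its parent Rpl38 encodes a protein known for its part in the translation of Hox messenger RNAs in the mouse embryo. Rpl30-ps11 read 6.74, 7.03 and 6.36 in HFD-inulin and 6.17, 5.97 and 5.97 in HFD, a difference of 0.67 ± 0.17 (SE) without overlap. Rpl14-ps1, a transcribed pseudogene in RefSeq, was brighter, at 8.46, 8.56 and 8.08 against 7.91, 7.78 and 7.89. Its groups did not overlap either, with a difference of 0.51 ± 0.13 (SE). Rpl31-ps18 and Rpl13-ps5 differed by 0.50 and 0.42.

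The smallest unadjusted p of all members belonged to a small subunit copy, Rps25-ps1. Its values were 4.90, 5.11 and 4.69 in HFD-inulin arrays 1, 2 and 3 and 4.47, 4.28 and 4.37 in HFD arrays 1, 2 and 3. The HFD-inulin arrays were all higher, and the difference was 0.53 ± 0.12 (SE). Rps19-ps7 stood out for its evenness: it read 5.10, 5.44 and 5.18 against 4.83, 4.65 and 4.89, a difference of 0.45 ± 0.11 (SE) that was 0.44 within the low-signal and 0.41 within the high-signal arrays. Its parent Rps19 is mutated in Diamond-Blackfan anaemia, a failure of red cell formation. The remaining members of this leading set, Rps15a-ps7, Rps13-ps4 and Rps19-ps11, differed by 0.64, 0.63 and 0.53, again without overlap.

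The member with the largest difference was named after its value was seen. Rpl3-ps2, a copy of a gene whose protein reaches towards the peptidyl transferase centre, read 4.90, 6.01 and 5.07 in HFD-inulin and 4.65, 4.29 and 4.64 in HFD, a difference of 0.80 ± 0.29 (SE). HFD-inulin array 2 held most of that difference, though the groups did not overlap. In all, 23 members were at least 1.5-fold higher, as were 0.411% of all probe sets, and 11 of the 23 were copies of Rps12 and 5 of Rpl30. Of these 11, Rps12-ps6, Rps12-ps17 and Rps12-ps18 have identical values, so they are not separate readings.

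The 6 brightest members had a higher HFD-inulin mean, by 0.30 to 0.38. Rps23-ps, a copy of a gene whose protein sits at the decoding centre of the small subunit, read 10.1, 10.3 and 9.84 in HFD-inulin and 9.76, 9.70 and 9.72 in HFD, a difference of 0.35 ± 0.11 (SE) without overlap. The next by signal were Rpl10-ps1, Rpl10-ps6, Rpl28-ps3, Rpl28-ps1 and Rpl17-ps4, whose differences were 0.30, 0.30, 0.32, 0.31 and 0.38. Groups overlapped for Rpl10-ps1 and both Rpl28 copies, and did not for Rpl10-ps6 and Rpl17-ps4. Rpl10, the parent of the first pair, encodes a protein that joins the large subunit late in its assembly.

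The difference grew with the signal. Of the 31 members with a mean under 2 on the log2 scale, 25 had a higher HFD-inulin mean and the median difference was 0.10. The median was 0.22 for the 29 members with a mean from 2 to 4 and 0.41 for the 44 from 4 to 6. At a mean of 6 or more the HFD-inulin mean was the higher one for all 97 members, their median difference was 0.43, and 72 of them had an unadjusted limma p under 0.05 and were higher, as did 12.5% of all probe sets of that level. Other probe sets of this signal level had smaller differences: over all 3214 probe sets with a mean of 6 or more the median difference was 0.07, and over the 50 other pseudogenes of that level 0.06. From 4 to 6 the median was 0.03 over all probe sets and 0.12 over 52 other pseudogenes, of which 38 were higher and 13 did not overlap (25%), against 26 of the 44 members (59.1%) and 9.55% of all probe sets. Across the 201 members, which share arrays and partly sequence, the correlation of level and difference was r = 0.60.

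**Figure D2:**
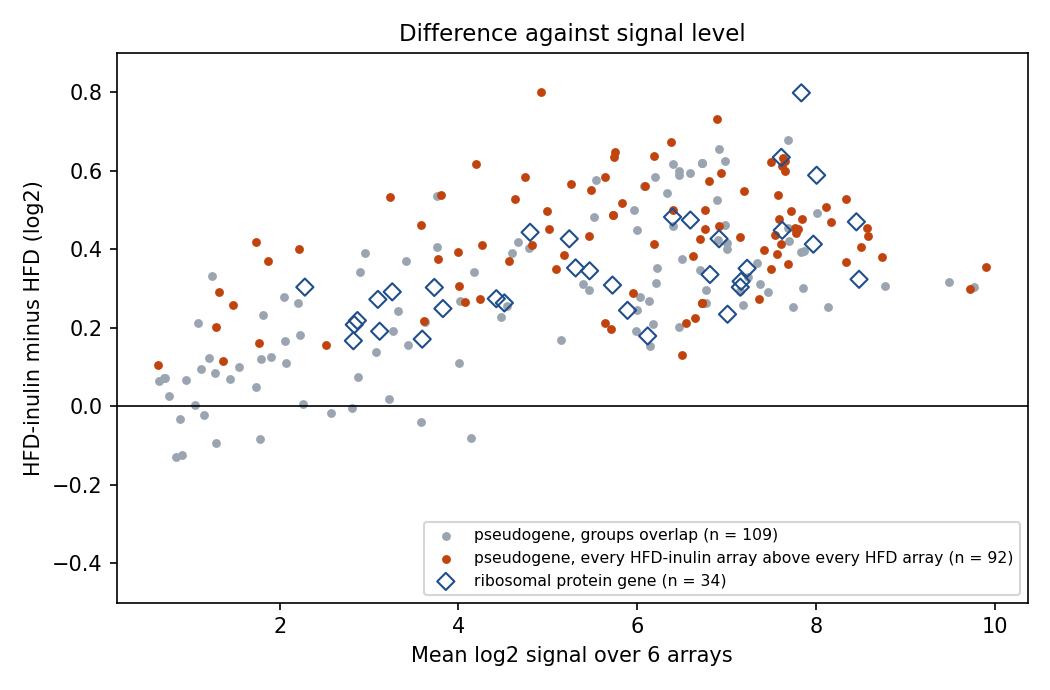
Difference HFD-inulin minus HFD (log2, vertical axis) against the mean log2 signal over the 6 arrays (horizontal axis) for the 201 pseudogenes (grey where the groups overlap, orange where every HFD-inulin array was above every HFD array) and 34 ribosomal protein genes (open diamonds). Points below 0 are few and lie at a mean of 4.14 or less, and the diamonds lie among the brighter pseudogenes.

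All 10 members with a lower HFD-inulin mean were among the dimmer ones, and their groups overlapped. They were Rps15a-ps1 at -0.13, Rpsa-ps3 at -0.12, Rpl35-ps1 at -0.09, Rps10-ps4, Rpl29-ps1, Rpl36-ps4, Rpl31-ps21, Rpl31-ps5, Rps10-ps3 and Rpl7l1-ps1. Rpl29-ps1 was the brightest of them with a mean of 4.14 and a difference of -0.08. The sign for Rps10-ps3, at -0.02, turned with quantile normalization and with median centring.

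The cytosolic ribosomal protein genes themselves, 34 of which were measured under a single symbol, were higher in HFD-inulin on average in all 34 cases. Their median difference was 0.31, with 23 at an unadjusted limma p under 0.05 (67.6%, against 2.52% of all probe sets) and 21 whose groups did not overlap (61.8%, against 4.32%). The smallest adjusted p was 0.902 here too. At a mean of 6 or more the 16 such genes had a median of 0.42, next to 0.43 for the pseudogenes of that level. Among these 16, the probe sets of Rpl12, Rpl27, Rpl35 and Rpl7a carry numbers of a chromosome that is not the gene's in RefSeq. They may read copies, which was not tested, and the chromosome of genes that are not parents is not compared here. Of the 628 other pseudogenes 281 were higher and 347 lower, with a median of -0.02. By the unadjusted p 23 of those were higher and 17 lower. The direction was the same for copies of both subunits. The 131 copies of large subunit genes had a median difference of 0.35 and 66 without overlap (50.4%). The 70 copies of small subunit genes had a median of 0.41 and 26 without overlap (37.1%).

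Copies of 1 parent resembled each other more than copies of different parents. Every copy had a higher HFD-inulin mean for 43 of the 51 parents. Since 16 parents had a single copy and 191 of the 201 members were higher, that count says little about likeness. Among the 98 members with a mean of 4 or more whose parent had at least 3 such copies (17 parents), differences between parents held 85.9% of the sum of squares. The range among copies of 1 parent had a median of 0.12, while parents' medians ran from 0.21 for Rpl29 to 0.63 for Rps13. The minimum of 4 was chosen after the values were seen, and copies of 1 parent share sequence, so they are not independent. The 98 members include copies of Rpl35a, Rps12 and Rps19 with identical values. These were counted as separate copies, although they add no spread within a parent. The share that parents would hold without any likeness was not computed, so whether 85.9% exceeds it was not tested.

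Rps12 and Rpl30 copies had differences of similar size, but their values overlapped between the groups to different extents. The 14 brighter copies of Rps12, a small subunit gene, differed by 0.56 to 0.68, yet only Rps12-ps1 and Rps12-ps10 had groups that did not overlap. Among the 14, Rps12-ps6, Rps12-ps17 and Rps12-ps18 have identical values. Rps12-ps9, the copy with the largest difference, read 8.19, 8.42 and 7.48 in HFD-inulin arrays 1, 2 and 3 and 7.31, 7.26 and 7.49 in HFD arrays 1, 2 and 3. HFD-inulin array 3 lay at the level of HFD array 3, and the difference was 0.997 within the low-signal and 0.11 within the high-signal arrays. The 6 brighter copies of Rpl30, a large subunit gene, differed by 0.57 to 0.67 and none overlapped. For Rpl30-ps11 the difference was 0.71 within the low-signal and 0.39 within the high-signal arrays.

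Several other families were lower or more spread, but not Rps13, whose 3 brighter copies differed by 0.58 to 0.65 without overlap. The 13 Rpl21 copies differed by 0.29 (Rpl21-ps5) to 0.48 (Rpl21-ps7), 10 of them without overlap. The 22 Rpl31 copies ran from -0.03 (Rpl31-ps21) to 0.55 (Rpl31-ps8), with 11 that did not overlap and 16 at an unadjusted limma p under 0.05. Rpl31-ps12, whose upstream sequence is given above, differed by 0.39 ± 0.19 (SE): it read 5.21, 4.80 and 4.40 in HFD-inulin and 4.39, 4.34 and 4.50 in HFD, so that HFD-inulin array 3 fell among the HFD arrays. Rps19 copies ran from 0.12 (Rps19-ps13) to 0.58 (Rps19-ps4). Low and narrow ranges were found for Rpl19, from 0.25 (Rpl19-ps11) to 0.30 (Rpl19-ps1) with overlap in all 4, and Rpl35a, from 0.13 (Rpl35a-ps2) to 0.26 (Rpl35a-ps3). Rps15a had the widest range among parents with at least 3 copies, from -0.13 (Rps15a-ps1, mean 0.84) to 0.64 (Rps15a-ps7, mean 6.19). In the Rpsa family, from a gene whose product is also known as the laminin receptor, copies ran from -0.12 (Rpsa-ps3) to 0.58 (Rpsa-ps12).

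**Figure D3:**
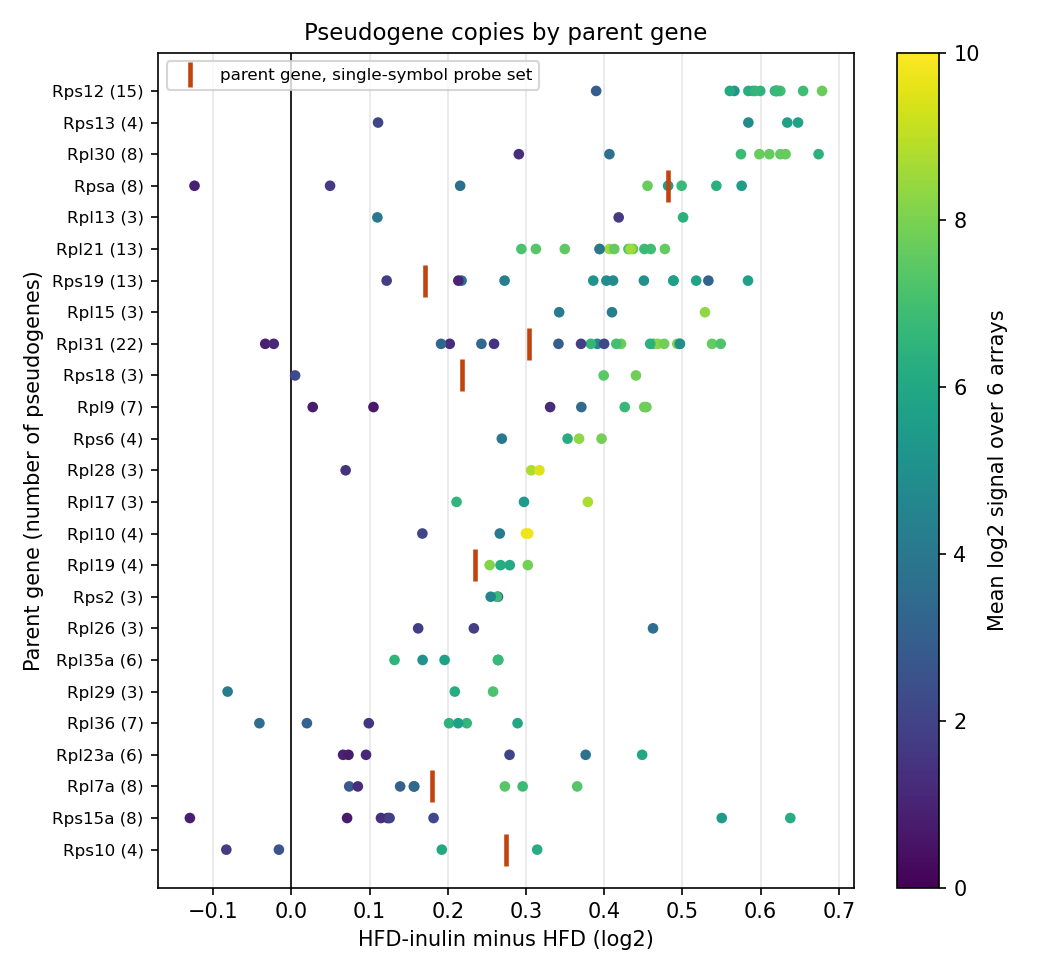
Difference HFD-inulin minus HFD (log2, horizontal axis) of every pseudogene whose parent has at least 3 copies, 1 row per parent with its number of copies (vertical axis), coloured by mean log2 signal over the 6 arrays; orange ticks mark parents measured under a single symbol. Bright copies of Rps12, Rps13 and Rpl30 cluster near 0.6, those of Rpl35a and Rpl36 near 0.2, and most points near 0 are dim.

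Chromosome X carries many of the copies with large differences. The 29 members numbered on chromosome X had a median difference of 0.56, against 0.36 for the 172 others, but 11 of them are Rps12 copies. The Rps12 copies on X, of which Rps12-ps6, Rps12-ps17 and Rps12-ps18 have identical values, had a median of 0.60. The 4 Rps12 copies elsewhere had one of 0.64. The 18 X-linked copies of other genes had a median of 0.32.

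Each pseudogene was then set against its parent on the same array. Only 18 of the 51 parents were measured by a probe set listing that gene alone, which gave 78 pairs. For 30 of the other 33, the gene was listed only together with others, as for Rps12, which shared its probe set with 9 of these pseudogenes. All 18 parents had a higher HFD-inulin mean, with a median difference of 0.29. For 11 of them the groups did not overlap (61.1%, against 4.32% of all probe sets). Both partners were higher in 71 of the 78 pairs. The gap, the pseudogene's log2 signal minus the parent's, was compared between groups because probe levels cannot be. It changed by a median of 0.05 (quartiles -0.05 and 0.17), being larger in HFD-inulin in 48 pairs and smaller in 30, and in 35 pairs the change was within 0.1. The gap's groups did not overlap in 18 pairs, 9 in each direction. For these the exact two-sided permutation p was 0.1, the smallest that 3 against 3 arrays can give. Without a group difference, a share of 0.1 of pairs would reach it on average, so part of the 18 can arise by chance. Many pairs are also not independent, since 22 share the parent Rpl31 and 13 the parent Rps19. Whether 18 of 78 exceeds chance was therefore not tested.

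Among pairs, Rpl38-ps1 and Rpl38 differed in size though both were higher in HFD-inulin. Rpl38 read 6.87, 7.28 and 6.80 in HFD-inulin and 6.76, 6.54 and 6.64 in HFD, a difference of 0.34 ± 0.14 (SE), less than the 0.73 of its copy. The gap was 0.28 ± 0.11 (SD, n = 3) in HFD-inulin and -0.12 ± 0.12 (SD, n = 3) in HFD, and the arrays did not overlap. Copies of Rps19 also had large gap changes, Rps19-ps4 at 0.41, Rps19-ps11 at 0.36 and Rps19-ps6 at 0.35. Their common partner, the single-symbol probe set of Rps19, was dim, with a mean of 3.60 and a difference of 0.17. The gap of Rps19-ps6 overlapped between the groups and those of Rps19-ps4 and Rps19-ps11 did not.

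Among pairs whose copy was at or above the median probe set, the most negative changes of the gap belonged to copies with low signals. Dimmer copies, such as Rpsa-ps3 with a gap change of -0.61 and a mean of 0.91, are outside this ranking. Rpl35 read 7.96, 8.22 and 7.60 in HFD-inulin and 7.41, 7.11 and 7.37 in HFD, a difference of 0.63, while Rpl35-ps1 had a mean of 1.29, close to the median probe set at 1.22, and differed by -0.09. Their gap change of -0.73 is thus mostly the parent's difference. Gap changes were -0.43 for Rpsa-ps5, -0.36 for Rps10-ps4 and -0.29 for Rps10-ps3, whose own means were 1.74, 1.78 and 2.58. Rpl12, which encodes a protein at the base of the ribosomal stalk, had the largest difference of any parent, 0.80, and its copies differed by 0.62 and 0.54. The probe sets of Rpl12, Rpl27, Rpl31, Rpl35 and Rpl7a carry numbers of a chromosome that is not the gene's in RefSeq, so their link to the gene is less sure.

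**Figure D4:**
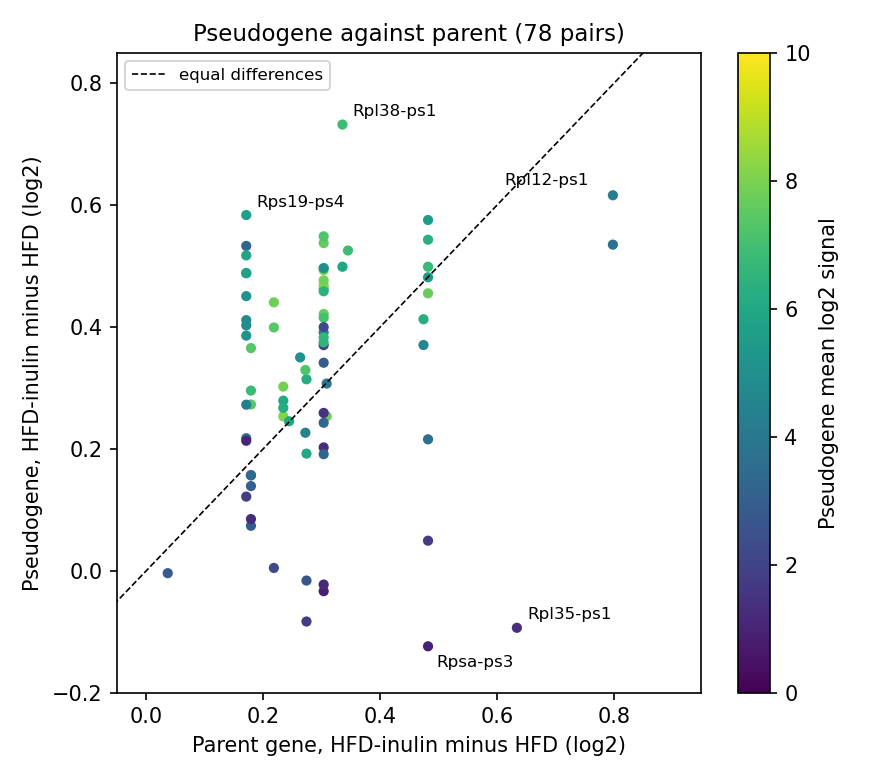
Difference HFD-inulin minus HFD (log2) of each pseudogene (vertical axis) against that of its parent gene (horizontal axis) for 78 pairs, coloured by the pseudogene's mean log2 signal; the dashed line marks equal differences. Most points have positive values on both axes, bright copies lie near or above the line, and the points below 0 are dim.

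Across the 78 pairs, many of which share a parent, the correlation of the 2 differences was r = 0.18. The single-symbol probe sets of several parents were dim, with means of 2.28 for Rpl31, 2.87 for Rps18 and 3.10 for Rps24. Reading each parent from its brightest probe set, whether or not other genes were listed with it, gave 48 parents and 197 pairs. All 48 parents then had a higher HFD-inulin mean, 32 of them without overlap, an order that 4.32% of all probe sets had. The pseudogene had the larger difference in 101 of 197 pairs. Over 44 parents with such a probe set, the correlation between its difference and the median of the brighter copies was r = 0.65. This choice of probe set was made after the data were seen, and probe sets listed for several genes can read copies as well as the parent.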

How the data were processed

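Liver total RNA of 6 mice, extracted with TRIzol and biotin-labelled per the labels' protocols, was measured on 1 Affymetrix array per mouse. The authors deposited log2 signals for 65956 probe sets, and the submitters' processing notes name Affymetrix Expression Console 1.0. The log base was inferred from the range of the values. The summarization method, the background handling and the build were not given in the sources used here. Array medians ran from 1.17 to 1.26, and the number of arrays limits the precision. Symbols came from the platform annotation: 30604 probe sets with 1 symbol (a repeated symbol counted once), 2146 with several and 33206 with none. RefSeq (GRCm38.p6) gave gene types and sequences.

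Differences are HFD-inulin minus HFD, fitted by limma 3.58.1 (R 4.3.3; lmFit and eBayes, no covariate, no filter, two-sided) on all probe sets, with Benjamini-Hochberg adjustment and a threshold of 0.05. The fit was tested on simulated data. In the main fit, the first count of members by each rule stands beside the share of all probe sets passing it. The gap between pseudogene and parent was compared with an exact permutation test.

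The members, comparison lists and tests were chosen with earlier results of these data known. The rule for named members took the 10 smallest unadjusted p, the 6 brightest, the 4 largest and 4 most negative gap changes among pairs at or above the median probe set, the highest and lowest copy of each parent with at least 3, and 3 members from earlier work. One of the latter, Rpl15-ps6, carries that symbol only after updating through RefSeq and has no value among the members. Rpl3-ps2, Rpl31-ps5, Rpl7l1-ps1, Rps12-ps1 and Rps12-ps10 were named outside the rule, after their values were seen. A further 12 pseudogenes, listed only with other genes, were left out. Whether replicate numbers pair the arrays is not settled: deviations of same-numbered arrays correlated at 0.26, -0.28 and 0.40. Alternatives were other variance priors, ordinary least squares, array weights, filters, normalizations, blocks, probe set choices and leaving out each array.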

Additional observations from a re-analysis of the deposited data

How the results depend on the processing

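The median difference of the pseudogenes stayed above 0 under every alternative run, from 0.24 to 0.50 with 1 array left out, and 0 members passed the adjusted threshold in the fits run on all 6 arrays. The number higher at an unadjusted p under 0.05, 110, was 47 with ordinary least squares (23.4% of members, against 1.81% of all probe sets), 17 at p under 0.01 (where 0.684% of all probe sets passed), and 43 to 158 with 1 array left out. A fit within the high-signal arrays gave 19, but it has a single HFD-inulin array, assumed to vary like the HFD arrays, so it says little about the count. The count was 88 with the replicate number as a block, though whether the numbers pair the arrays is not settled. The number lower, 0, was 1 within the high-signal arrays and 0 to 1 with 1 array left out. Members whose groups did not overlap, 92, numbered 181 within the low-signal arrays (90.0%, against 29.2% of all probe sets). The number was 124 within the high-signal arrays (61.7%, against 35.4%) and 92 to 172 with 1 array left out. With fewer arrays this order is easier to reach. Within the high-signal arrays the median difference was 0.12 for the pseudogenes and 0.12 for the parents (0.20 to 0.39 with 1 array left out). The median change of the gap, 0.05, was -0.028 within the high-signal arrays, -0.0067 with parents from probe sets listed for several genes, 0.00099 with the brightest probe set and 0.0018 to 0.083 with 1 array left out, so its sign is not settled. Rps10-ps3 (-0.02) turned to 0.013 with quantile normalization and 0.016 with median centring, and Rps18-ps2 (0.0046) to -0.0042 with the split as a block. The cause of these changes was not tested. Another scaling moved the median of all probe sets by under 0.1. With 3 arrays per group, no detection calls and no probe sequences used here, low signals carry little information, and signal from a copy was not separated from signal of its parent.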
